A study of Homo sapiens with 9 samples.

Results

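The actin cytoskeleton of MDA-MB-231 cells was followed through 47 genes that encode actin, the proteins that bind, nucleate, cross-link and contract its filaments, the adhesions that anchor them and the small GTPases that control them, together with MARCKSL1, the MARCKS-like protein at the inner face of the plasma membrane. They were selected by gene symbol, with earlier results of these data known, and all 47 were found among the 60719 genes of the deposited table. MDA-MB-231 is a human breast cancer cell line of mesenchymal-like, receptor-poor character.

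Recipient cells of this line, wild type by their labels, were grown for 72 h in exosome-depleted medium under 3 conditions with 3 libraries each. TIS sEV cells received small extracellular vesicles from donor cells treated for 72 h with 100 ng/ml Nocodozole (the labels' spelling of nocodazole, a microtubule poison) and then released for 72 h, which the study calls therapy-induced senescent. Cont sEV cells received vesicles from donors treated with the solvent DMSO and released in the same way, and No sEV cells received none. Donors and recipients were the same cell line, so each group is a model within 1 line. The labels do not say whether the 3 libraries of a group came from separate cultures, so p-values measure the spread between these libraries, which may be technical. The unit is TPM, a relative transcript abundance corrected for transcript length that sums to 1000000 in each library, so read depth is unknown. TPM of a cell population cannot tell fewer expressing cells from less RNA per cell.

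Actin filaments grow from a pool of monomers held by profilin and beta-thymosins, are seeded by formins and by the Arp2/3 complex, and are cut by cofilin and gelsolin. Tropomyosins and caldesmon coat them, alpha-actinins and filamin cross-link them, non-muscle myosin II contracts them, and talin and vinculin couple them to integrins. MARCKS proteins and adducins bind actin beneath the membrane and are substrates of protein kinase C. Free monomers also bear on transcription: cofactors of serum response factor (SRF) bind them, and many actin genes are known SRF targets.

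The defining markers of the line were present. VIM was at 2206 to 2299 TPM over the 9 libraries, and CD44, AXL and CAV1 were also expressed, while SPARC was at 0.229 to 1.49 TPM. These 5 markers summed to 3189 to 3255 TPM in TIS sEV, above 3063 to 3141 in Cont sEV and 3087 to 3133 in No sEV. VIM and CD44 were each higher in all TIS sEV libraries than in all others, without passing the test. For CD44 the log2 fold change was 0.14 against Cont sEV and 0.18 against No sEV (limma, adjusted p = 0.228 and 0.271). Of 9 markers of luminal and receptor-positive breast cells, ESR1, PGR, FOXA1 and CDH1 stayed under 1 TPM in all 9 libraries. The others were detected: KRT8, KRT18 and EPCAM, ERBB2 at 26.2 to 30.7 TPM and GATA3 at 2.63 to 4.54 TPM. The luminal markers summed to 817 to 832 TPM in TIS sEV, 790 to 800 in Cont sEV and 778 to 818 in No sEV. Among markers of other cell types, the 3 endothelial ones summed to 1.49 to 1.80 TPM in TIS sEV, 2.10 to 2.30 in Cont sEV and 1.87 to 1.95 in No sEV, groups that did not overlap. PECAM1 made up nearly all of that sum, while VWF and CDH5 stayed under 1 TPM in all libraries. The 5 leukocyte markers summed to 154 to 164 TPM in TIS sEV, 149.7 to 163 in Cont sEV and 154 to 158 in No sEV, nearly all of it CD68, while CD14 averaged 2.66, 3.33 and 2.97 TPM in TIS sEV, Cont sEV and No sEV and CD3E did not exceed 0.0387 TPM in any library. The 6 fibroblast and smooth muscle markers summed to 8.82 to 11.98 TPM in TIS sEV, 8.33 to 9.48 in Cont sEV and 9.25 to 10.5 in No sEV. Most of that was COL1A1, at 7.07 to 9.26 TPM, while MYH11 and DCN were at or near 0.

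The test was run on the 13879 genes that reached 1 TPM in 3 or more libraries, and all 47 were among them. They accounted for 2.89% to 3.00% of all TPM in a library. Of the 47, 7 averaged at least 1000 TPM, 22 lay between 100 and 1000 TPM and 18 lay under 100 TPM. The monomer-binding thymosins TMSB10 and TMSB4X were the most abundant, followed by profilin (PFN1), both cytoplasmic actins, cofilin (CFL1) and the essential myosin light chain MYL6. At the low end, the smooth-muscle-associated transgelin TAGLN averaged 5.38 TPM, the filopodial bundling protein fascin (FSCN1) 13.3 TPM and tropomyosin TPM2 16.2 TPM over the 9 libraries. The coefficient of variation over the 9 libraries had a median of 3.5% for these genes, and it ran between 1.3% (ARPC2) and 20.1% (TPM2). Its median was 5.42% for all tested genes between the lowest and highest mean of the 47. Those genes were not matched for level: ADD1, at a mean of 92.4 TPM, ranked 1843, so most of them lay lower than most of the 47. The 2 medians therefore do not show that these genes were steadier than others of like level.

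**Figure D1:**
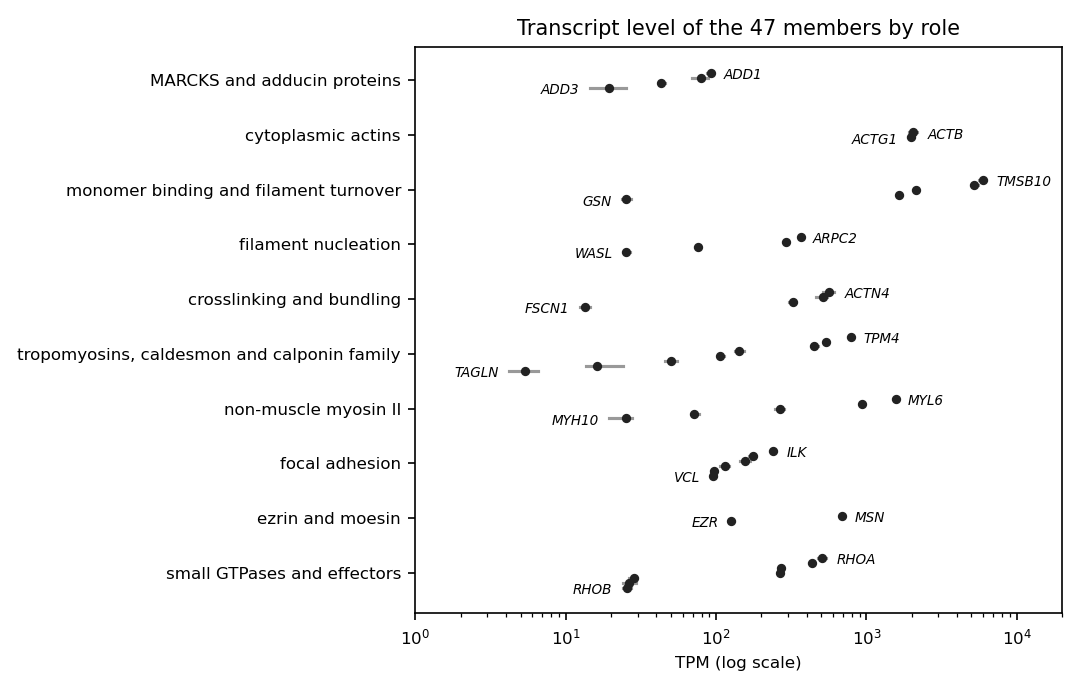
Mean TPM over the 9 libraries (dots) and the range between the lowest and highest library (grey bars) for the 47 genes, arranged by role on a log scale, with the lowest and highest gene of each role named. TMSB10 and TMSB4X stand highest, TAGLN lies lowest, and for most genes the range is narrower than the dot.

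The comparison of TIS sEV with Cont sEV asks what the vesicles of senescent donors add to those of DMSO donors. MARCKSL1 was the one gene of the 47 that passed the test, and it was lower in TIS sEV than in Cont sEV cells. MARCKSL1 was at 76.0, 69.7 and 73.1 TPM in TIS sEV, at 87.4, 87.6 and 87.8 TPM in Cont sEV, and at 80.4, 79.4 and 77.6 TPM in No sEV. The 3 groups did not overlap, with TIS sEV lowest and No sEV between the others. MARCKSL1 averaged 72.9 ± 3.17 TPM in TIS sEV, 87.6 ± 0.207 TPM in Cont sEV and 79.1 ± 1.39 TPM in No sEV (SD, n = 3 each).

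The mean of MARCKSL1 was 0.832 times as high in TIS sEV as in Cont sEV, a log2 fold change of -0.26 with a 95% confidence interval of -0.34 to -0.18 on the log2(TPM + 1) scale (limma, adjusted p = 0.0343 over all genes). Of the 13879 genes tested, 13 passed (0.0937%), and 0.0504% of genes passed with a lower level in TIS sEV. MARCKSL1 did not pass in the other comparisons: its log2 fold change was -0.12 in TIS sEV against No sEV (unadjusted p = 0.00835, adjusted p = 0.508) and 0.15 in Cont sEV against No sEV (unadjusted p = 0.00233, adjusted p = 0.705). These comparisons share libraries, so they are not independent of each other. MARCKSL1 was the one gene of the 47 in which none of the 3 groups overlapped another, a pattern held by 0.749% of all tested genes. The 47 genes were chosen with earlier results of these data known, so these shares lend the call of MARCKSL1 no support. Its call was lost whenever any of the 9 libraries was left out, with log2 fold changes of -0.29 to -0.23 and adjusted p of 0.0607 to 0.172. The endothelial marker PECAM1, at a low level, had its groups in the same order, with 1.45 ± 0.111 TPM in TIS sEV, 2.07 ± 0.0764 TPM in Cont sEV and 1.83 ± 0.0481 TPM in No sEV (SD, n = 3 each). Its log2 fold change in TIS sEV against Cont sEV was -0.33 (unadjusted p = 0.00724, adjusted p = 0.291), and its part in the result for MARCKSL1 was not tested.

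MARCKS, its larger relative, did not pass in any comparison. MARCKS was at 43.3, 46.0 and 43.4 TPM in TIS sEV, at 44.2, 41.6 and 41.7 TPM in Cont sEV and at 41.9, 44.0 and 43.0 TPM in No sEV, with the groups overlapping throughout. Its log2 fold changes were 0.057, 0.041 and -0.016 in TIS sEV against Cont sEV, TIS sEV against No sEV and Cont sEV against No sEV, none past the test. MARCKSL1 made up 62.2% ± 1.80 of the summed TPM of the pair in TIS sEV, 67.3% ± 0.822 in Cont sEV and 64.8% ± 0.790 in No sEV (SD, n = 3 each).

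Little or none of the sequence of either gene is shared with another gene. In GENCODE 29 on GRCh38, MARCKSL1 (ENSG00000175130) is a protein-coding gene of 2 exons on the minus strand of chromosome 1, positions 32333832 to 32336379, with no exon overlapped by another gene and 0.36% of its 31-base words found elsewhere in the transcriptome. MARCKS, on the plus strand of chromosome 6, positions 113857362 to 113863471, shared none of its 31-base words with another gene. The sequences before their start sites are shown because the genes are close relatives with different values here. They are RefSeq promoter windows (GRCh38.p14), for MARCKSL1 the 104 bases of chr1:32336380-32336483 (minus strand) that lie before the gene's GENCODE start, and for MARCKS the 250 bases of chr6:113857095-113857344 (plus strand). Capitals mark GC boxes, GGGCGG on either strand. The 3 boxes of MARCKSL1 form a single run in which neighbours share a base.
MARCKSL1: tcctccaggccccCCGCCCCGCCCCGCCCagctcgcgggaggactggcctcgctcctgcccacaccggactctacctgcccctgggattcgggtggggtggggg
MARCKS: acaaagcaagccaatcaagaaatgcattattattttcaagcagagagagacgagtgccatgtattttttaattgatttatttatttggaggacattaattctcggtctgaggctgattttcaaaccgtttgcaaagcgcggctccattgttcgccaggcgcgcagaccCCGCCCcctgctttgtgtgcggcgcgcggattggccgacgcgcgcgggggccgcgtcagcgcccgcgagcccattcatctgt
The MARCKSL1 stretch held 3 GC boxes and 76.9% G and C, the MARCKS stretch 1 GC box and 52.8% G and C. Neither held a CArG box, the site SRF binds, nor the TEAD core GGAATG on either strand. These matches describe the letters of the windows and were not set against any binding data.

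Adducins cap filaments and join them to the spectrin network. ADD1 was at 93.6, 94.7 and 94.7 TPM in TIS sEV, at 95.8, 90.3 and 91.2 TPM in Cont sEV and at 87.5, 94.6 and 88.9 TPM in No sEV, and its groups overlapped in all 3 comparisons. ADD3 was at 20.8, 20.9 and 18.9 TPM in TIS sEV, at 22.2, 25.0 and 20.2 TPM in Cont sEV and at 15.7, 14.5 and 17.4 TPM in No sEV. Every TIS sEV and Cont sEV library was thus above every No sEV library for ADD3, while TIS sEV and Cont sEV overlapped.

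ADD3 had the largest log2 fold changes among the 47 genes in both comparisons with No sEV, and neither passed. They were 0.33 in TIS sEV against No sEV (95% confidence interval 0.14 to 0.52, adjusted p = 0.436) and 0.47 in Cont sEV against No sEV (interval 0.28 to 0.66, adjusted p = 0.556), and -0.14 in TIS sEV against Cont sEV. An antisense gene, ADD3-AS1, overlaps 3.73% of the exon bases of ADD3, and no source used here says whether the quantification used strand.

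**Figure D2:**
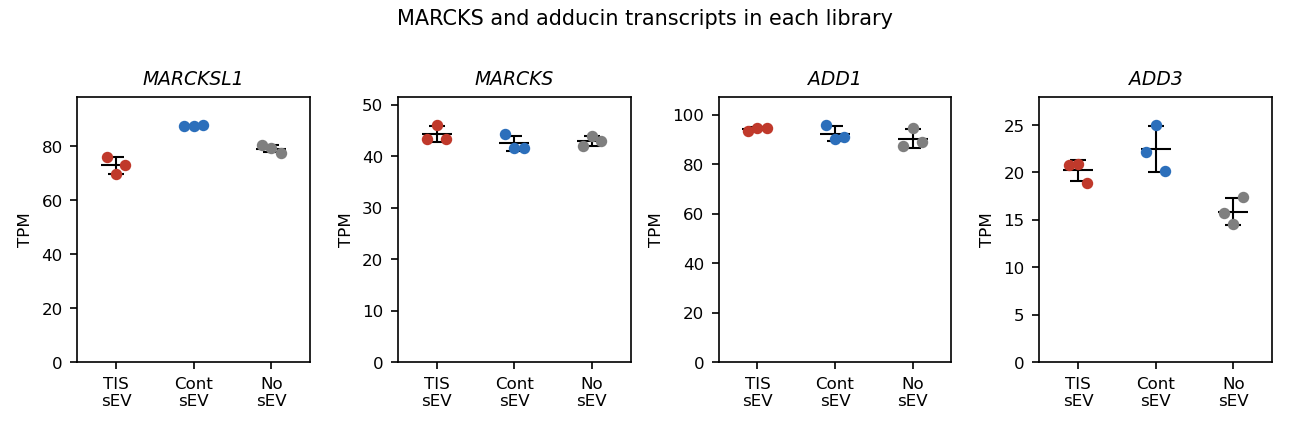
TPM of MARCKSL1, MARCKS, ADD1 and ADD3 in each library (dots) with the group mean and SD (black bars, n = 3 per group), each vertical axis starting at 0. MARCKSL1 separates the 3 groups with TIS sEV lowest and Cont sEV highest, ADD3 is lowest in No sEV, and MARCKS and ADD1 overlap.

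The other 46 genes did not pass in TIS sEV against Cont sEV. Counted by mean, 35 of the 47 were higher in TIS sEV than in Cont sEV, as were 59.6% of all tested genes, and the median log2 fold change was 0.037 for the 47 genes and 0.020 for all genes. Without Cont sEV replicate 2 these medians were 0.023 and 0.0071. With median-of-ratios scaling 30 of the 47 were higher. The TIS sEV and Cont sEV libraries did not overlap for 15 of the 47 genes, 31.9%, against 15.4% of all genes: 10 were higher in TIS sEV (10.9% of all genes) and 5 lower (4.47% of all genes). At an unadjusted p under 0.05 there were 6 of 47, against 10% of all genes. They were TPM1, MYL9 and TPM4, higher in TIS sEV (7.07% of all genes), and MARCKSL1, TMSB10 and ARPC5, lower (2.93% of all genes). No test was made of these counts, since genes measured in the same libraries are not independent.

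**Figure D3:**
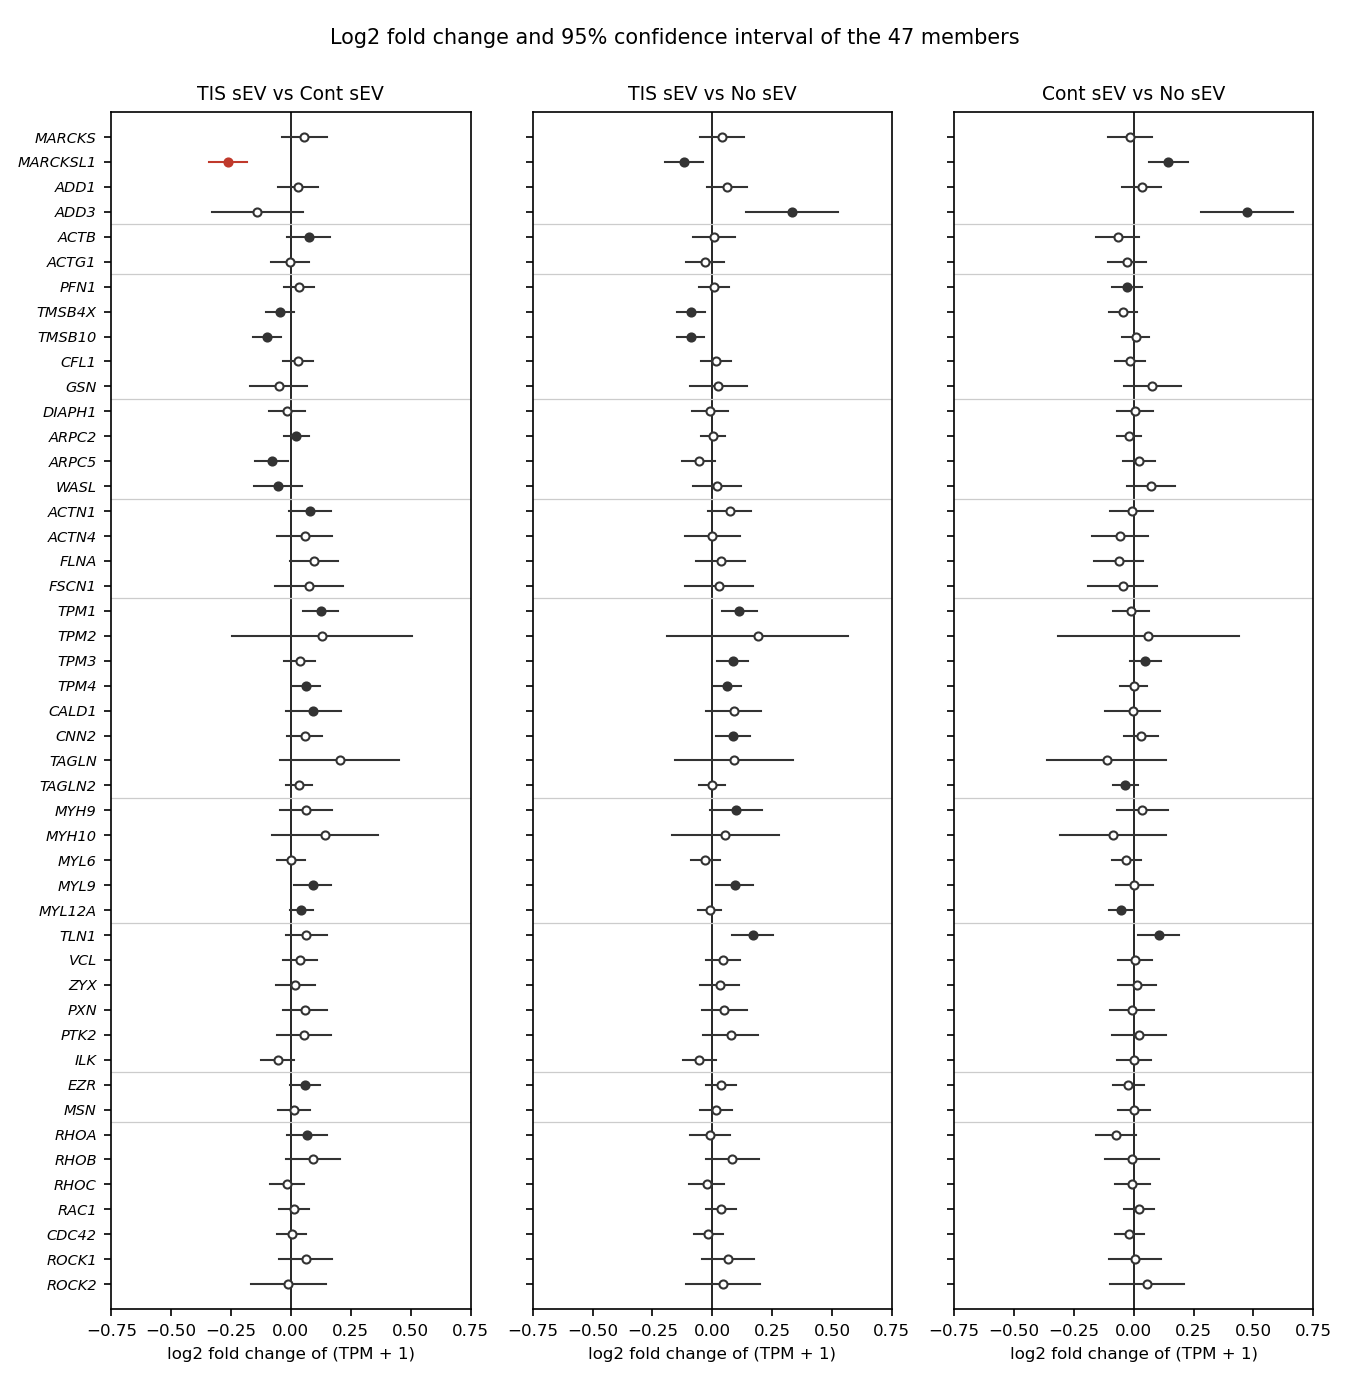
Log2 fold change of (TPM + 1) with its 95% confidence interval for the 47 genes in the 3 comparisons, ordered by role, with grey lines between roles. Filled dots mark genes whose groups do not overlap, open dots those that overlap, and red the adjusted p under 0.05; MARCKSL1 in TIS sEV against Cont sEV is the single red gene, at -0.26.

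Cytoplasmic actins were close to equal to each other and between groups. ACTB was at 2057, 2038 and 2139 TPM in TIS sEV, at 2002, 1978 and 1942 TPM in Cont sEV and at 2108, 1931 and 2172 TPM in No sEV. The TIS sEV libraries were above the Cont sEV libraries for ACTB and inside the No sEV range (log2 fold change 0.074, adjusted p = 0.593, and 0.0067). ACTG1 differed by -0.0028 between TIS sEV and Cont sEV on the log2 scale, a sign that turns with quantile normalization (0.040), and ACTB made up 51.5% ± 0.707, 50.2% ± 0.999 and 50.9% ± 0.673 of the pair's TPM in TIS sEV, Cont sEV and No sEV (SD, n = 3 each). ACTB shares 16.0% of its 31-base words with other genes, among them its pseudogenes, so its level depends on how Salmon, the authors' quantifier, assigned shared reads.

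Among monomer-binding and turnover proteins, the thymosins were lower in TIS sEV without passing the test. TMSB10 was at 5797, 5593 and 5623 TPM in TIS sEV, at 5969.7, 6189 and 6059.5 TPM in Cont sEV and at 6212, 5913 and 5998 TPM in No sEV. All 3 TIS sEV libraries lay below the other 6 libraries. The log2 fold change of TMSB10 was -0.099 against Cont sEV (adjusted p = 0.238) and -0.091 against No sEV (adjusted p = 0.495). TMSB4X was at 5001, 5038 and 4986 TPM in TIS sEV, at 5153, 5294 and 5077 TPM in Cont sEV and at 5168, 5487 and 5346 TPM in No sEV, again with TIS sEV below all other libraries. Its log2 fold change was -0.047 against Cont sEV and -0.090 against No sEV (adjusted p = 0.495 in TIS sEV against No sEV). TMSB4X shares 16.0% and TMSB10 6.22% of its 31-base words with other genes, mostly pseudogenes. PFN1, CFL1 and GSN overlapped between TIS sEV and either of the other groups, with log2 fold changes of 0.033, 0.029 and -0.052 against Cont sEV.

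Nucleators showed small differences. ARPC5, an Arp2/3 subunit, was at 285, 280.0 and 279.8 TPM in TIS sEV, at 294, 299 and 300.2 TPM in Cont sEV and at 280.3, 303 and 297 TPM in No sEV. TIS sEV lay below Cont sEV for ARPC5 (log2 fold change -0.080, adjusted p = 0.419) and overlapped No sEV. The subunit ARPC2 was at 374, 370.1 and 369 TPM in TIS sEV, at 367, 360.2 and 368 TPM in Cont sEV and at 369, 377 and 365 TPM in No sEV. ARPC2 thus lay above Cont sEV in TIS sEV where ARPC5 lay below it, with a log2 fold change of 0.023 for ARPC2. The Arp2/3 activator WASL (N-WASP) was lower in all TIS sEV than in all Cont sEV libraries (-0.054), and the formin DIAPH1 overlapped (-0.018).

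Of the crosslinkers and bundlers ACTN1, ACTN4, FLNA and FSCN1, all 4 had a higher mean in TIS sEV than in Cont sEV, under each scaling tried, with log2 fold changes of 0.058 to 0.098 and none past the test. ACTN4, the most abundant, was at 560.1, 577 and 567 TPM in TIS sEV, at 558, 515 and 565 TPM in Cont sEV and at 574, 525 and 608 TPM in No sEV, overlapping in all comparisons. ACTN1 did not overlap between TIS sEV and Cont sEV. In Cont sEV replicate 2 all of ACTN1, ACTN4 and FLNA had their lowest value of the 9 libraries, and FLNA was at 461 TPM there against 509 and 520 TPM in the other Cont sEV libraries.

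The tropomyosins, caldesmon and the calponin family were higher by mean in TIS sEV than in Cont sEV in all 8 of 8 genes, under each scaling tried, and none passed the test. Their median log2 fold change was 0.079, beside 0.020 for all genes. TPM1 was at 144, 152 and 153 TPM in TIS sEV, at 139.9, 139 and 133 TPM in Cont sEV and at 137, 139.8 and 138 TPM in No sEV. All 3 TIS sEV libraries lay above the other 6, with log2 fold changes of 0.12 against Cont sEV (adjusted p = 0.248) and 0.11 against No sEV (adjusted p = 0.495). TPM4 was at 809.6, 819 and 813 TPM in TIS sEV, at 793, 758 and 786 TPM in Cont sEV and at 760.4, 796 and 781 TPM in No sEV. The same split held for TPM4, at 0.063 against both (adjusted p = 0.453 and 0.596).

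TPM3 was at 477, 454 and 443 TPM in TIS sEV, at 445, 445 and 449 TPM in Cont sEV and at 425, 437 and 433 TPM in No sEV. For TPM3 the TIS sEV and Cont sEV libraries overlapped and both lay above No sEV, by 0.085 and 0.049 on the log2 scale. TPM2 rested on 1 library: it was at 24.2 TPM in TIS sEV replicate 2 and at 13.6 to 18.0 TPM in the other 8 libraries, and without that library its log2 fold change against Cont sEV was -0.10 in place of 0.13. The actin-binding CALD1 and the calponin CNN2 had log2 fold changes of 0.094 and 0.057 against Cont sEV, and TAGLN2, the abundant transgelin of non-muscle cells, 0.034. TAGLN reached 0.20 with an interval of -0.044 to 0.45 at a mean under 6 TPM. Among the 4 tropomyosins TPM4 made up 56.6% ± 0.586, 56.5% ± 0.560 and 57.1% ± 0.256 of their summed TPM in TIS sEV, Cont sEV and No sEV (SD, n = 3 each). TPM4 and CNN2 share 16.8% and 17.3% of their 31-base words with other genes. Antisense genes lie over exon bases of TPM1, TPM1-AS over 16.1% and AC079328.2 over 5.37%.

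Several of these genes carry a CArG box in their promoter window. RefSeq windows of 300 bases (250 before to 50 after a start site) were matched for 41 of the 47 genes, and 6 of the 41 (14.6%) held a CArG box, against 1.6% of 27305 genes. ACTB, FSCN1, MYL9, PTK2, RAC1 and TAGLN had no window and were not searched. A gene can have several windows: counted by window, 6 of the 69 windows of these genes (8.7%) held one, against 1.29% of all 35116 windows. They are shown with 10 bases on each side, on the strand of the gene, since SRF is known to control actin genes through such sites; capitals mark the box.
ACTG1: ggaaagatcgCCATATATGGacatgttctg
ACTN1: acgctcatgtCCAAAAATGGtaacattcat
CNN2: cgcctccaggCCTTATAAGGacatttgcgc
FLNA: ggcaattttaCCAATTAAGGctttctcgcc
ROCK2: aaatgtacttCCTTAAATGGgtttactggg
TPM4: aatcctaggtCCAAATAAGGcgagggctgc
Their positions on GRCh38.p14 were chr17:81512874-81512903 (-) for ACTG1, chr14:68977718-68977747 (-) for ACTN1, chr19:1026509-1026538 (+) for CNN2, chrX:154374709-154374738 (-) for FLNA, chr2:11345491-11345520 (-) for ROCK2, chr19:16067355-16067384 (+) for TPM4. None overlapped a GC box or a TEAD core. The TEAD core GGAATG, on either strand, was in 15.9% of the 69 windows, against 14% of all windows, and GGGCGG in 78.3%, against 45%. Counted by gene, the TEAD core was in 10 of the 41 (24.4%), against 16.7% of all genes, and GGGCGG in 100%, against 48.3%. In TIS sEV against Cont sEV the log2 fold changes of these 6 genes were 0.080 for ACTN1, 0.057 for CNN2, 0.098 for FLNA, 0.063 for TPM4, -0.0028 for ACTG1 and -0.011 for ROCK2, with none past the test.

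All 5 myosin II genes had a higher mean in TIS sEV than in Cont sEV (0.0015 to 0.14 on the log2 scale), except that MYL6 turned to -0.020 with median-of-ratios scaling and to -0.010 with mitochondrially encoded genes left out, and none passed the test. MYL9, a regulatory light chain whose phosphorylation drives contraction, was at 76.6, 73.5 and 72.2 TPM in TIS sEV, at 68.3, 70.4 and 69.6 TPM in Cont sEV and at 68.4, 68.3 and 71.5 TPM in No sEV. TIS sEV was above both for MYL9, by 0.092 (adjusted p = 0.418) and 0.093 (adjusted p = 0.582). MYL12A, another regulatory light chain, was at 944, 935 and 942 TPM in TIS sEV, at 912, 926 and 900.2 TPM in Cont sEV and at 938, 968 and 939 TPM in No sEV. For MYL12A the Cont sEV libraries were the lowest, with log2 fold changes of 0.043 in TIS sEV against Cont sEV and -0.055 in Cont sEV against No sEV (adjusted p = 0.561 and 0.807).

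MYL6 was at 1584, 1529 and 1572 TPM in TIS sEV, at 1591, 1578 and 1512 TPM in Cont sEV and at 1609, 1610.4 and 1560.4 TPM in No sEV, overlapping in all comparisons. Of the heavy chains, MYH9 made up 91.4% ± 0.400, 91.8% ± 0.795 and 91.1% ± 0.211 of the summed TPM of MYH9 and MYH10 in TIS sEV, Cont sEV and No sEV (SD, n = 3 each). MYH10 was at 19.4 TPM in Cont sEV replicate 2 and at 24.4 to 27.4 TPM in the other 8 libraries.

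In focal adhesions, TLN1, which links integrins to actin, had the smallest p of the 47 genes in TIS sEV against No sEV. TLN1 was at 167, 160.2 and 168 TPM in TIS sEV, at 155, 152 and 167 TPM in Cont sEV and at 150.1, 145 and 145 TPM in No sEV. TIS sEV and Cont sEV overlapped and both lay above No sEV. The log2 fold change of TLN1 was 0.17 in TIS sEV against No sEV (95% confidence interval 0.082 to 0.25, adjusted p = 0.328) and 0.10 in Cont sEV against No sEV (adjusted p = 0.804).

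ILK, a scaffold at integrin tails, was at 239.5, 228 and 233 TPM in TIS sEV, at 238, 242 and 249 TPM in Cont sEV and at 251, 239 and 238 TPM in No sEV, overlapping throughout. On the opposite strand TAF10 overlaps 68.1% of the exon bases of ILK, AC091564.2 10.4% and AC091564.3 7.87%. The level of ILK is therefore uncertain where strand was not used. Vinculin (VCL), zyxin (ZYX), paxillin (PXN) and focal adhesion kinase (PTK2) overlapped in all comparisons, with log2 fold changes of 0.037, 0.017, 0.059 and 0.054 in TIS sEV against Cont sEV, of which that of ZYX turned negative with median-of-ratios and quantile scaling.

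Ezrin and moesin tether filaments to membrane proteins. MSN was at 712, 677 and 698 TPM in TIS sEV, at 695, 664 and 708 TPM in Cont sEV and at 691, 676 and 696 TPM in No sEV, overlapping throughout. EZR was higher in all TIS sEV than in all Cont sEV libraries (log2 fold change 0.059, adjusted p = 0.537).

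The small GTPases set the balance between protrusion and contraction. RHOA was at 508, 502 and 531 TPM in TIS sEV, at 498, 500.2 and 473 TPM in Cont sEV and at 496, 514 and 540.3 TPM in No sEV. The RHOA libraries of TIS sEV lay above those of Cont sEV and within the No sEV range (log2 fold change 0.067 against Cont sEV, adjusted p = 0.601). RHOB, RHOC, RAC1, CDC42 and the kinases ROCK1 and ROCK2 overlapped between TIS sEV and Cont sEV, with log2 fold changes of -0.016 (RHOC) to 0.091 (RHOB). RHOB was 2.76% ± 0.0216, 2.64% ± 0.0715 and 2.58% ± 0.154 of the summed TPM of RHOA, RHOB and RHOC in TIS sEV, Cont sEV and No sEV (SD, n = 3 each). CDC42 shares 56.8% of its 31-base words with other genes, nearly all with a gene that overlaps it on the same strand.

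**Figure D4:**
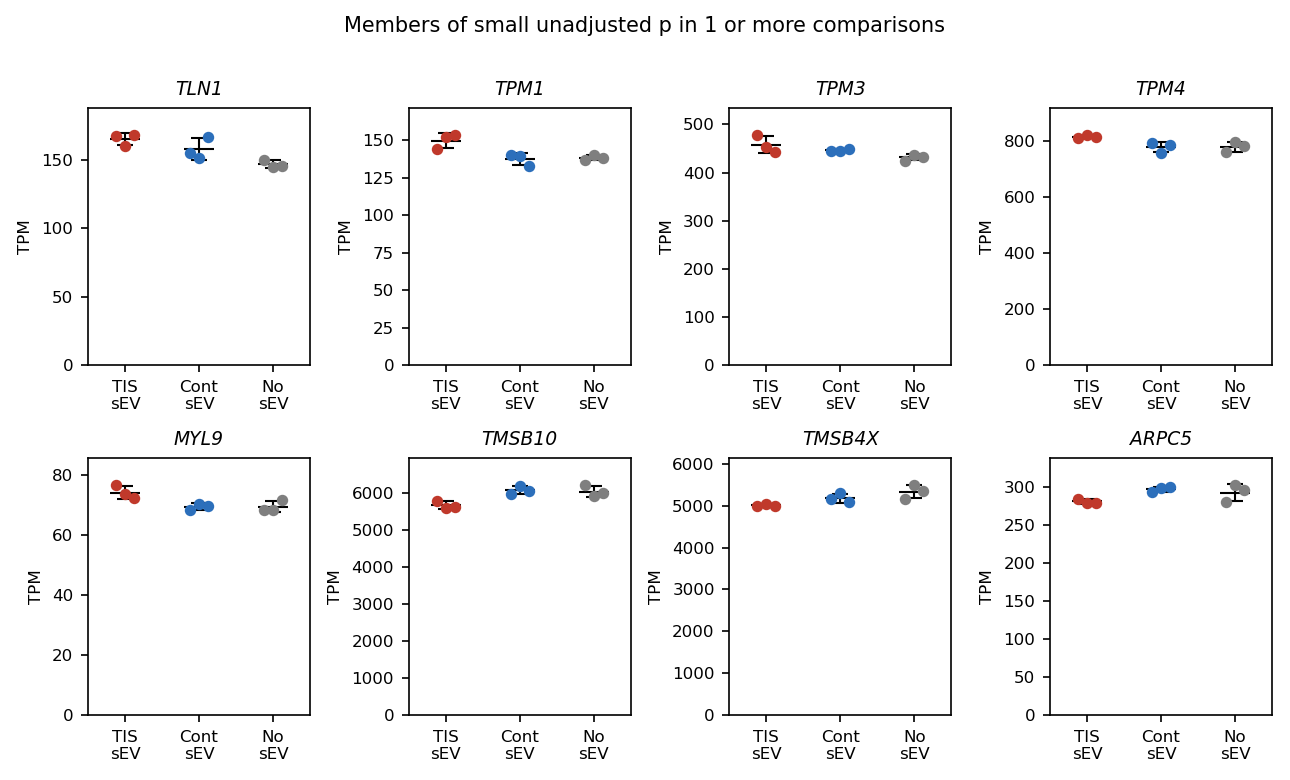
TPM in each library (dots) with group mean and SD (black bars, n = 3 per group) for 8 genes of small unadjusted p in 1 or more comparisons, each axis starting at 0. TPM1, TPM4 and MYL9 are highest and TMSB10 and TMSB4X lowest in the 3 TIS sEV libraries, and on axes that start at 0 each difference is small.

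Against No sEV, 0 of the 47 genes passed in TIS sEV, where 1 of 13879 genes did (0.00721%, limma). At an unadjusted p under 0.05 there were 10 of 47, against 7.97% of all genes, 7 higher in TIS sEV (CNN2, MYL9, TLN1, TPM1, TPM3, ADD3 and TPM4, against 6.33% of all genes) and 3 lower (MARCKSL1, TMSB10 and TMSB4X, against 1.64% of all genes). The libraries did not overlap for 11 of 47, against 14.1% of all genes: these were the same 10 genes and MYH9, 8 higher (11.3% of all genes) and 3 lower (2.77% of all genes). By mean 33 of 47 were higher in TIS sEV than in No sEV, as were 66.7% of all genes, and the medians were 0.034 for the 47 genes and 0.032 for all genes. With median-of-ratios scaling 23 of the 47 were higher and the median was -0.00045.

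The comparison of Cont sEV with No sEV asks what vesicles from DMSO donors add to none. None of the 47 genes and 0 of 13879 genes passed (0%, limma), with 837 genes at an unadjusted p under 0.05, 6.03% of all genes, and 4 of the 47 among them. ADD3, MARCKSL1 and TLN1 were the 3 higher in Cont sEV (3.53% of all genes) and MYL12A the 1 lower (2.5% of all genes). The libraries did not overlap for 7 of 47, against 11.2% of all genes, with TPM3 joining the 3 higher (6.72% of all genes) and PFN1 and TAGLN2 joining MYL12A (4.47% of all genes). By mean 22 of 47 were higher in Cont sEV, against 56.5% of all genes, with medians of -0.0045 for the 47 genes and 0.011 for all genes. With median-of-ratios scaling 15 of the 47 were higher, and with quantile normalization 18. Without Cont sEV replicate 2 the medians were 0.0099 and 0.024.

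The intervals limit how large a difference these data allow. Their median half-width was 0.080 on the log2 scale. In TIS sEV against Cont sEV 42 of the 47 intervals lay within a 1.2-fold difference in either direction, and the exceptions were MARCKSL1, ADD3, TAGLN, TPM2 and MYH10. The last 4 were also the exceptions in TIS sEV against No sEV and in Cont sEV against No sEV. All 47 lay within 1.5-fold in both comparisons of TIS sEV, and in Cont sEV against No sEV all but ADD3 did.

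Single libraries moved many of these genes together. Cont sEV replicate 2 held the lowest value of the 9 libraries for 13 of the 47 genes and was above a gene's own mean for 9 of them. Its median deviation from the mean was -0.075 (log2) for the 9 genes whose longest annotated transcript has at least 6000 bases. It was -0.059 for the 1903 tested genes of that length with a mean of at least 5 TPM. Cont sEV replicate 3 was at 0.091 for the same 9 genes, against 0.043 for those 1903 genes. The transcripts expressed here can be shorter than the longest one. TIS sEV replicate 1 held the lowest value for 0 of the 47 and was above the own mean for 37. MARCKSL1, whose longest annotated transcript has 1699 bases, was between 87.4 and 87.8 TPM in the 3 Cont sEV libraries. Other genes also varied little there, among them TAGLN2 at 526 to 530 TPM and EZR at 122.6 to 123.9 TPM. The part of transcript length in the differences was not tested.

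**Figure D5:**
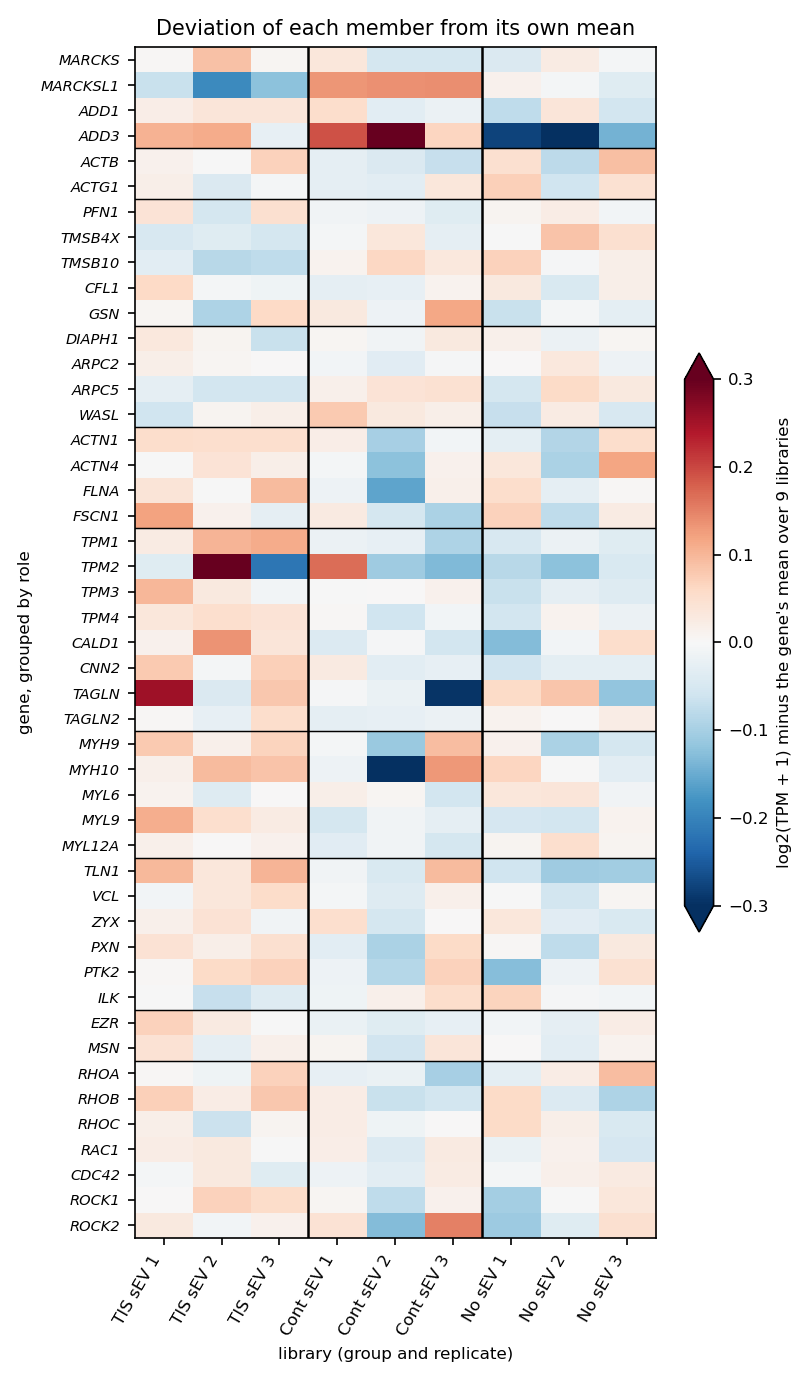
Deviation of log2(TPM + 1) from the gene's mean over the 9 libraries, for 47 genes in rows by role and 9 libraries in columns, red above and blue below the mean, with the color scale ending at 0.3 in either direction. MARCKSL1 is blue in TIS sEV and red in Cont sEV, ADD3 is blue in No sEV, and Cont sEV replicate 2 is above the mean for 9 of the 47 genes.

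Of 93 further genes of the actin pathway, in 9 lists, 90 passed the filter and 0 passed the test in any comparison (limma), with 10 at an unadjusted p under 0.05 in TIS sEV against Cont sEV (10% of all genes), 13 in TIS sEV against No sEV (7.97% of all genes) and 5 in Cont sEV against No sEV (6.03% of all genes). Their median log2 fold changes were 0.025, 0.033 and 0.024 in the same order, beside 0.020, 0.032 and 0.011 for all genes. In the list of adhesion adaptors and kinases, PDLIM7 (a PDZ and LIM domain protein on actin cables) averaged 86.3 ± 0.593 TPM in TIS sEV, 79.8 ± 2.54 in Cont sEV and 79.6 ± 1.06 in No sEV (SD, n = 3 each). The Cdc42 effector CDC42EP3 averaged 209 ± 6.94, 195 ± 4.61 and 191 ± 1.62 TPM in TIS sEV, Cont sEV and No sEV. Both had all TIS sEV libraries above the Cont sEV libraries, with adjusted p of 0.265 and 0.287 in TIS sEV against Cont sEV.

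The formin DIAPH3 averaged 31.1 ± 1.19 TPM in TIS sEV, 27.7 ± 0.919 in Cont sEV and 29.7 ± 0.173 in No sEV (adjusted p = 0.248 in TIS sEV against Cont sEV). PPP1R12A, the myosin phosphatase targeting subunit, averaged 51.3 ± 2.96, 49.0 ± 1.30 and 46.5 ± 0.267 TPM, and CAP1, which recycles actin monomers, 511 ± 6.58, 499 ± 8.22 and 486 ± 6.81 TPM in TIS sEV, Cont sEV and No sEV. Each list had its own gene of smallest p, and the remaining ones were the spectrin SPTBN1 (adjusted p = 0.582), the SRF target ACTA2 (0.539) and the calmodulin gene CALM3 (0.551) in TIS sEV against No sEV and the WAVE subunit WASF1 (0.807) in Cont sEV against No sEV. ACTA2 was low, at 3.41 ± 0.397, 2.87 ± 0.405 and 2.42 ± 0.354 TPM in TIS sEV, Cont sEV and No sEV. In the list of SRF, its MRTF cofactors and their targets, 0 of 7 tested genes passed, with log2 fold changes of 0.011 to 0.19 in TIS sEV against Cont sEV and a median of 0.059, beside 0.020 for all genes. SRF itself differed by 0.014 and MRTFA by 0.092. Kinases and ligands of MARCKS proteins gave a median of 0.023 in TIS sEV against Cont sEV, with 0 of 8 past the test.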

How the data were processed

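RNA of MDA-MB-231 cells in 3 groups of 3 libraries was quantified as gene-level TPM, which the authors deposited as 1 table of 60719 genes. The submitters' processing notes list Salmon 1.4.0, Trim Galore 0.6.6, FastQC 0.11.9, the build GRCh38.p13 and DESeq2 1.28.0; annotation release and strand setting are not given in the sources used here. No counts were modelled, since depth cannot be read from TPM. Groups came from the labels. Symbols and positions came from GENCODE 29 (99.58% of genes matched), promoters from RefSeq (GRCh38.p14). Between 21292 and 21975 genes per library were above 0, and no libraries were identical.

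Values were taken as log2(TPM + 1), which understates fold changes of low genes. Genes reaching 1 TPM in 3 or more libraries were fitted over all 9 libraries with limma 3.58.1 in R 4.3.3 (variance trend, two-sided), with Benjamini-Hochberg adjustment over all genes at 0.05. Figures used matplotlib 3.10.9. The fit was run on simulated data with independent noise, with a bound on false calls. A bound on recovery was set only for differences larger than any given here. The simulation therefore does not show how well a difference like that of MARCKSL1 is found. Alternatives were other pseudocounts, filters and scalings, a replicate block, only the compared libraries, and leaving out each library. Libraries with the same replicate number are not said to be paired.

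The 47 genes and all lists were chosen with earlier results of these data known. Values per library are given for MARCKSL1, MARCKS, ADD1, ADD3, each gene past the threshold, the 6 of smallest p per comparison and the most abundant per role; from each other list the gene of smallest p is named.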

Additional observations from a re-analysis of the deposited data

How the results depend on the processing

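Over the alternatives MARCKSL1 kept its direction in TIS sEV against Cont sEV, with log2 fold changes of -0.29 to -0.26 and an adjusted p under 0.05 in 5 of 8. The call was lost (-0.26 each) with low genes kept in (adjusted p = 0.0565), with the replicate number as a block (adjusted p = 0.0650) and with only the 6 libraries compared (adjusted p = 0.123), so that 0 of the 47 genes passed under these; only the 6 libraries left 3 genes of the whole table past the threshold. The cause was not tested. Same-numbered libraries correlated at -0.048 to 0.079 in their deviations, and differently numbered ones at -0.101 to 0.1. These values cannot tell whether same-numbered libraries were made together, which the labels do not say. The block moved the count of genes past the threshold in TIS sEV against Cont sEV to 9.

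Leaving out 1 library left 0 of the 47 genes past the threshold and 2 to 13 genes of the table in TIS sEV against Cont sEV, with MARCKSL1 at -0.29 to -0.23; 0 to 1 gene in Cont sEV against No sEV; 1 to 2 genes in TIS sEV against No sEV. The median of the 47 genes then ran between 0.023 and 0.043 in TIS sEV against Cont sEV, 0.024 and 0.043 in TIS sEV against No sEV and -0.012 and 0.0099 in Cont sEV against No sEV.

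Median-of-ratios scaling gave medians of 0.016 in TIS sEV against Cont sEV and -0.00045 in TIS sEV against No sEV, and quantile normalization 0.019 in TIS sEV against No sEV. Keeping low genes gave 9 genes in TIS sEV against No sEV and 7 in Cont sEV against No sEV, only the compared libraries 2 in TIS sEV against No sEV, and a mean of at least 5 TPM 1 in Cont sEV against No sEV. Among the values of single genes, leaving out MARCKSL1 in TIS sEV against Cont sEV (given above), 2364 kept their side of the threshold. Values near 0 could change sign, and 16 without a call moved. Read depth is unknown, so no limit from counts can be given.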
